A study of Rattus norvegicus with 36 samples.

Results

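Of 5307 GR (glucocorticoid receptor) regions in rat hippocampus, 1885 lay on chromosomes 1 to 20 or X, shared 1 bp or more with a region bound by pCREB, and had a peak call in 4 or more of the 8 GR libraries from vehicle-treated rats. These 1885 regions, called the members here, were chosen from 4234 GR regions shared with pCREB, of which the other 2349 had fewer than 4 vehicle calls. A further 200 GR regions had 4 or more vehicle calls and no pCREB region over them. The pCREB list held 14722 regions, of which 1884 overlapped a member. Vehicle calls chose the members, so their vehicle calls, their GR levels and their GR difference between corticosterone and vehicle are given as descriptions. Contrasts of pCREB, and the GR contrast between trained and untrained rats within corticosterone, were tested. They are not free of selection either, since a region is listed for an antibody only when it has enough calls in some condition of that antibody.

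The study profiled GR and pCREB (CREB phosphorylated at its activating serine) by ChIP-seq in hippocampus of male Sprague-Dawley rats that were untrained or trained and received vehicle or corticosterone, in a series on memory formation under glucocorticoids. The 4 conditions were untrained vehicle, untrained corticosterone, trained vehicle and trained corticosterone, with 4 chromatin pools (replicates A to D) each, so that each antibody had 16 libraries. Each pool came from 2 rats and held 4 hippocampi, and its chromatin was divided between both antibodies, so a GR and a pCREB library with the same condition and letter share their rats. No genetic alteration is named for any group. The labels give neither dose, time, age nor training task. Each condition carried its own lane number, 5 to 8 in the order above, so lane and condition cannot be told apart. Hippocampus mixes neurons and glia, and fewer cells that bind a factor cannot be told apart from less binding per cell.

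GR is a nuclear receptor that moves into the nucleus when it binds corticosterone, the main glucocorticoid of rats, and regulates genes from glucocorticoid response elements or through other DNA-bound factors. Hippocampal neurons also express the mineralocorticoid receptor, which has a higher affinity for the same hormone, so GR is the receptor that becomes occupied at stress levels of it. CREB sits at cAMP response elements, often near gene starts, and its phosphorylation by kinases downstream of neuronal activity recruits coactivators, a step long studied in hippocampal memory.

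Reads in the regions were few: GR libraries held 55254 to 173176 reads over all GR regions, and pCREB libraries 143219 to 562249 over all pCREB regions. GR libraries called between 159 and 1720 of the 1885 members. The calls of 3 libraries stood apart, with 159 members called in untrained vehicle A, 240 in untrained vehicle B and 222 in untrained corticosterone B, against 1135 to 1720 in the other 13. Of the 9210 vehicle calls at members, 399 came from untrained vehicle A and B, so the rule was met mainly through the other 6 vehicle libraries. The table lists only GR regions called in 3 or 4 libraries of a single condition or more. Among the members, 253 reached that number in untrained vehicle, 835 in untrained corticosterone, 1468 in trained vehicle and 1532 in trained corticosterone. A vehicle condition sufficed for 1513 members, and the other 372 were listed through a corticosterone condition only. In 15 GR libraries the regions called had their greatest excess of reads over regions not called in that library's own counts. The exception was untrained corticosterone B, whose calls went with the counts of untrained vehicle B (1.19 on the log2 scale) more than with its own (0.77). Untrained vehicle B was also the shallowest GR library, with a median of 6 reads per member where the other 15 had 14 to 29. In the pCREB set, trained corticosterone A called 304 and untrained vehicle A 437 of the members' partners, against 1354 to 1846 in the other 14 libraries.

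**Figure D1:**
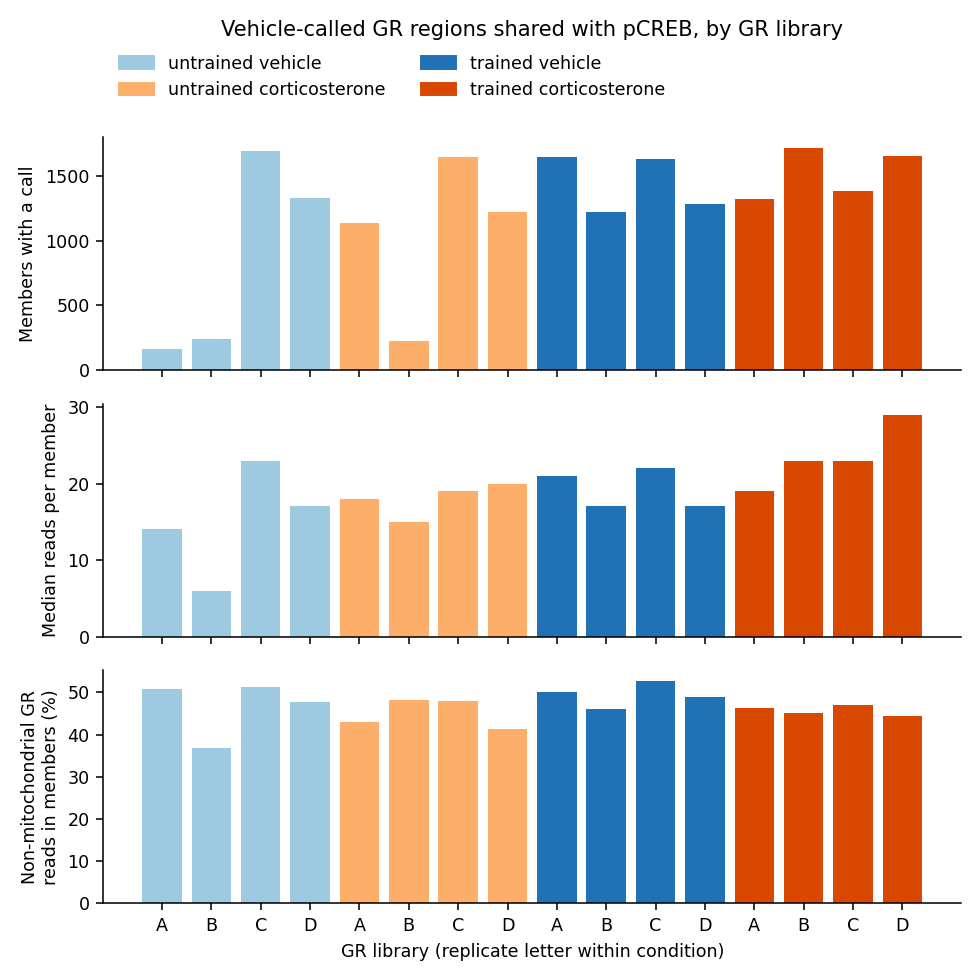
Bars give, for each of the 16 GR libraries (replicates A to D, coloured by condition), the number of the 1885 members with a peak call, the median reads per member and the percentage of non-mitochondrial GR reads that fell in members. Untrained vehicle A and B and untrained corticosterone B have 159, 240 and 222 calls, while their shares of reads, 50.8%, 36.9% and 48.2%, do not set all 3 apart.

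The members took a large share of the GR reads in libraries with many and with few calls. They were 1885 of the 5307 GR regions, with a median width of 468 bp against 388 bp at other shared and 308 bp at GR-only regions. The share to be expected from their number and width was not computed, so the share is no measure of binding. Their share of non-mitochondrial GR reads was 48.1% ± 4.96 (SD, n = 8) in vehicle libraries and 45.4% ± 2.42 (SD, n = 8) in corticosterone libraries, and the ranges, 36.9 to 52.6% and 41.3 to 48.2%, overlapped. Untrained vehicle A, with the fewest calls of all, had 50.8% of its reads in members. Part of the share lay in a few regions. Without the 4 members that varied most in GR between libraries it was 45.5% ± 6.53 (SD, n = 8) in vehicle and 43.0% ± 3.3 (SD, n = 8) in corticosterone libraries. In untrained corticosterone B, also with few calls, it went from 48.2% to 40.1%. The partners of the members held 17.2% ± 2.86 (SD, n = 8) of non-mitochondrial pCREB reads in vehicle libraries and 18.2% ± 1.62 (SD, n = 8) in corticosterone libraries.

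GR and pCREB regions lay almost on top of each other at the members. The centres of the paired regions were a median of 19.5 bp apart, and 90% of members lay within 66.8 bp. The whole GR region sat inside the pCREB region at 1166 members (61.9%), the reverse held at 128, and 591 overlapped in part. Members were a median of 468 bp wide (174 to 1720 bp) and their pCREB partners 538 bp. The shared regions with fewer vehicle calls had much the same geometry, with a centre offset of 22.0 bp and 64.3% inside the pCREB region, and were narrower at 388 bp. All but 1 member met a single pCREB region, and 1 member met 2.

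Members were spread over all of chromosomes 1 to 20 and X. They made up between 36.2% (chromosome 11) and 51.8% (chromosome 16) of a chromosome's shared GR regions. The median distance from a member to the nearest GR region was 80.3 kb, close to the 82.9 kb of the other shared regions. Within 10 kb of another member lay 120 members (6.37%), in 48 pairs, 5 groups of 3, 1 group of 4 and 1 group of 5. The group of 4, on chromosome 4 from 77447833 to 77453133 (rn6), held the member with the highest GR level of all.

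Most members stood close to the limit of the rule. Vehicle calls numbered 4 at 856 members (45.4%), 5 at 576, 6 at 299, 7 at 120 and 8 at 34 (1.8%). Just inside the limit, at 4 calls, the median GR level in the 8 corticosterone libraries was 287 CPM per kb (CPM are counts scaled to the library's reads in GR regions, divided here by the region's length in kilobases). Just outside it, at 3 calls, the same median was 279 CPM per kb over 863 regions, close to the value inside it. Examples from the middle of each class were alike: chr1:22826652-22827169, with 4 vehicle calls, had 32.7 to 256 GR CPM (median 144) over the 16 libraries, and chr6:105521905-105522373, with 3, had 47.5 to 196 (median 138).

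Above 5 calls the levels climbed. In the corticosterone libraries, which the rule did not read, the median GR level was 312 CPM per kb at members with 5 vehicle calls, 371 at 6, 704 at 7 and 1455 at 8. The pCREB level of the partners went the same way, from 114 CPM per kb at 4 vehicle GR calls to 122, 142, 180 and 318 at 8. The partner was called in all 16 pCREB libraries at 2.34% of members with 4 vehicle calls and at 58.8% of the 34 members with 8. Over all members that share was 7.27% (137 members), and it was 1.75% (41 regions) among the other shared regions and 3.46% (510 regions) over all pCREB regions.

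**Figure D2:**
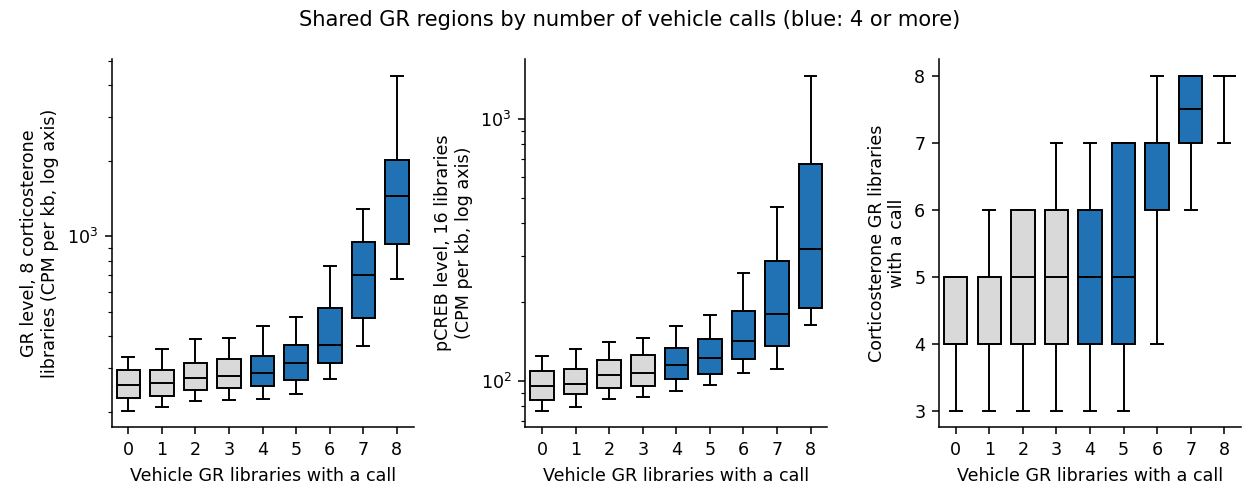
Boxes show, for the 4234 shared GR regions grouped by the number of vehicle GR libraries with a call (0 to 8, members in blue), the GR level in corticosterone libraries, the pCREB level in 16 libraries (CPM per kb, log axes) and the number of corticosterone GR libraries with a call. Lines mark medians, boxes quartiles and whiskers the 10th and 90th percentiles; medians of GR level run from 257 at 0 calls through 287 at 4 to 1455 at 8.

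Members called in vehicle libraries were mostly called after corticosterone too. The median member had a call in 6 of the 8 corticosterone libraries, against 5 for the other shared regions. At least 5 of them called 1392 members (73.8%), against 53.6% of the others. At 4 or more the shares were 88.2% and 85.0%, and at 3 or more 95.2% and 98.4%, so the gap depends on the cut-off. Corticosterone calls also helped to list regions, and 372 members were listed through a corticosterone condition only. These counts are therefore a description. All 8 corticosterone libraries called 169 members. At the other end, 28 members had at most 1 corticosterone call, and chr4:60469001-60469276 had none. At that region GR signal was low throughout, from 20.8 to 143 CPM in vehicle and from 8.71 to 77.1 CPM in corticosterone libraries, and the groups overlapped. All 16 GR libraries called 27 members, and at 17 of these all 16 pCREB libraries called the partner.

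Of the 10 strongest members with 8 vehicle calls, 7 varied less in GR between libraries than the median member. Ranked by GR level in corticosterone libraries among the 34 members with 8 vehicle calls, chr4:77447833-77448435 came first, with 4956 to 11637 GR CPM (median 6899) over 16 libraries. Its pCREB signal ran from 2625 to 8444 CPM (median 3379). The region chr19:56337681-56338520 had 6273 to 10497 GR CPM (median 9261) and 3324 to 5813 pCREB CPM (median 4223). At both regions the lowest library was within a few fold of the highest, and no library lacked signal. The same even pattern was seen at chr20:40913368-40913963 (4589 to 8081 GR CPM, 1395 to 2724 pCREB CPM), chr4:77449493-77449966, chr10:78149453-78149778, chrX:36448494-36448933 and chr20:40884475-40884850, whose coefficients of variation (SD over mean) across GR libraries were 0.145 to 0.192. Each of these 7 had a partner called in all 16 pCREB libraries. The remaining 3 of the top 10 had less pCREB relative to GR and varied more in GR between libraries: chr7:144015886-144017606, chr3:150581563-150581906 and chr6:11963483-11963936. Their coefficients of variation in GR were 1.37, 0.412 and 0.388, against 0.314 at the median member. In pCREB the coefficients were 2.11, 0.206 and 0.26 at these 3, against 0.248 at the median member. Among the 7 the highest in pCREB was 0.373, at chr4:77447833-77448435. The mean pCREB levels of the 3, at 534, 190 and 163 CPM per kb, were above the members' median of 123. At the chromosome 7 region that mean rested on a few libraries. Its pCREB signal had a mean of 1121 CPM but a median of 259 CPM, with 9097 CPM in trained vehicle B.

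Over all members GR and pCREB levels went together. Across the 1885 members the log2 levels had a Pearson correlation of 0.817 and a Spearman correlation of 0.739, against 0.659 and 0.594 across the 2349 other shared regions. Points of such a correlation share libraries, base composition and mappability, and it is given as a description. The log2 ratio of pCREB to GR level had a median of -1.45, with 80% of members between -1.8 and -1.16. Its zero has no meaning, since each antibody is scaled to its own region list, but members can be ranked by it. Beyond this narrow band a branch of members had a high GR level relative to their pCREB level.

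**Figure D3:**
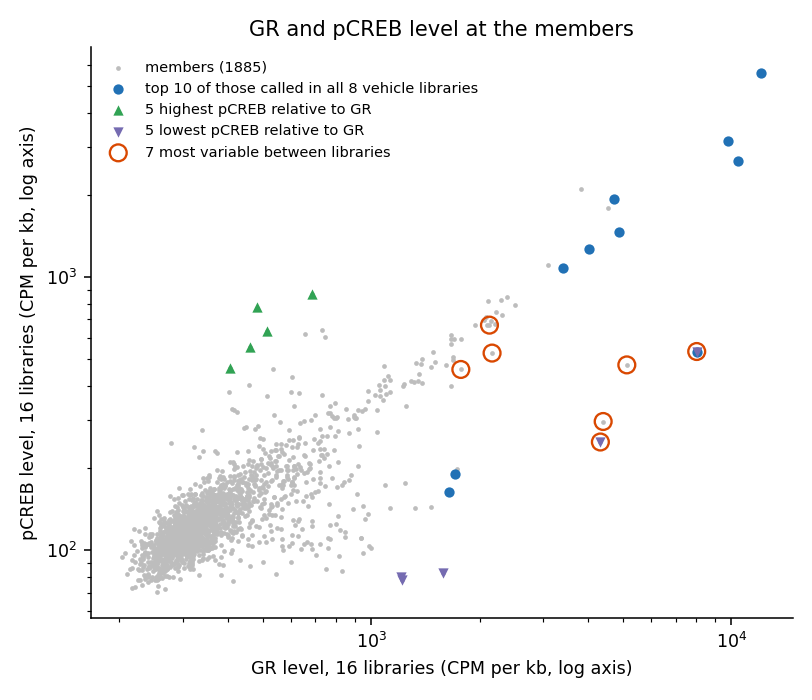
Each point is 1 of 1885 members by its mean GR level (x) and mean pCREB level (y) over 16 libraries each, in CPM per kb on log axes. Most members lie along 1 band, with the 5 highest in pCREB relative to GR (green triangles) above it, and a branch of members with high GR relative to pCREB level, among them the 5 lowest (purple triangles), below it. Orange rings mark the 7 members that varied most between libraries.

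At the low end of the ratio GR levels were high. Among the 5 lowest, pCREB levels outside chromosome 7 were 77.9, 79.9 and 82.2 CPM per kb, below the members' median of 123. Those on chromosome 7 were 249 and 534 CPM per kb. The lowest ratio, -4.27, belonged to chr10:68863412-68863783, called in all 16 GR libraries, with 254 to 926 GR CPM in vehicle (median 439) and 441 to 1032 CPM in corticosterone libraries (median 687). Its pCREB partner, 263 bp wide, had 5.54 to 36.6 CPM (median 21.4) and was called in 8 of 16 libraries. The region chr6:27802105-27802489 had a ratio of -3.97 and a pCREB partner called in only 3 libraries. At chr5:74507825-74508182 the ratio was -3.92, and GR signal ran from 207 to 1235 CPM with the highest value in untrained vehicle B. The other 2 of the 5 lowest were chr7:144015886-144017606 and chr7:144038895-144039988, whose levels rest on a few libraries. At chr3:150581563-150581906 and chr6:11963483-11963936, both called in all 16 GR libraries, the ratios were -3.17 and -3.34.

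At the 5 members with the highest ratios the pCREB regions were wide and the GR regions inside them narrow. This did not hold for the high end as a whole. The 189 members with the highest ratios had a median GR width of 479 bp, against 468 bp over all members and 350 bp over the 189 with the lowest. The 5 highest ratios were 0.68 at chr12:503395-503687, 0.35 at chr14:10580909-10581163, 0.3 at chr6:9482406-9482708, 0.27 at chr1:80920716-80921001 and 0.2 at chr5:63781489-63781877. Their GR regions were 254 to 388 bp and their pCREB partners 517 to 805 bp wide, and all 5 partners were called in all 16 pCREB libraries. At chr14:10580909-10581163 pCREB signal was 546 to 919 CPM (median 681) and GR signal 114 to 293 CPM (median 171). At chr12:503395-503687 pCREB signal was 394 to 904 CPM (median 560) and GR signal 78.2 to 268 CPM (median 121). Their GR levels of 406 to 684 CPM per kb were above the median of 325 among the 189 members with the highest ratios.

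The comparison of corticosterone with vehicle asks where the hormone changed GR binding. Over all 4968 GR regions tested, edgeR called 1.65% higher and 0.0201% lower after corticosterone (Benjamini-Hochberg adjusted p under 0.05, average of both training states). Of 1885 members 1880 passed the filter on low counts and were tested, of which 4 were called higher and 1 lower. Since the rule required vehicle calls, these counts are a description. DESeq2 called 5 members higher and 3 lower, beside 1.99% and 0.0604% of all regions. The members tested had a median log2 fold change of -0.19, against -0.07 over all regions tested, -0.04 over the other shared regions and 0.35 over the 198 GR-only regions with 4 or more vehicle calls that were tested. The estimate was below 0 at 1496 members and above 0 at 384. By condition, the median member had 352 GR CPM per kb in untrained vehicle, 313 in untrained corticosterone, 370 in trained vehicle and 317 in trained corticosterone libraries.

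**Figure D4:**
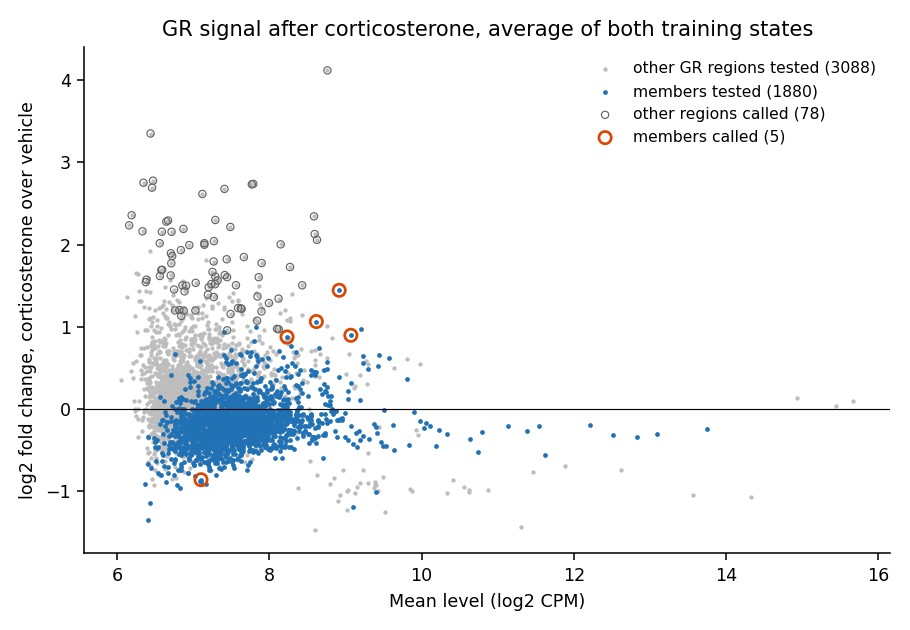
Each point is a GR region tested, by its mean level (x, log2 CPM) and its log2 fold change of corticosterone over vehicle (y, average of both training states, edgeR), with the 1880 members in blue and other regions in grey. Orange circles mark the 5 members called, 4 above and 1 below 0, and small grey circles the other regions called.

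None of the 5 called members met all conditions for naming (an above-median level and no overlap between groups), and they are named because they are so few. At chr15:106543141-106543691 vehicle libraries had 111 to 304 GR CPM (median 191) and corticosterone libraries 253 to 471 CPM (median 352). The groups overlapped only slightly, and the log2 fold change was 0.88 (SE 0.188, edgeR adjusted p = 0.00942). That call was kept under all 21 other settings and left-out libraries tried, with adjusted p up to 0.0456. At chr8:66126047-66126441 vehicle libraries had 135 to 451 CPM (median 225) and corticosterone libraries 283 to 691 CPM (median 476), a log2 fold change of 1.06 (SE 0.246, edgeR adjusted p = 0.0192). It lost its call without untrained vehicle A or C, trained vehicle C, or trained corticosterone B or D, with adjusted p of at most 0.0646. 

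At chr6:27802105-27802489, with a pCREB level of 77.9 CPM per kb, vehicle libraries had 79.5 to 807 CPM (median 200) and corticosterone libraries 441 to 1011 CPM (median 594). The vehicle value of 807 CPM was untrained vehicle B, and the other 7 vehicle libraries lay at 79.5 to 294 CPM, below every corticosterone library. The log2 fold change was 1.45 (SE 0.354, edgeR adjusted p = 0.0351), and 1.92 without untrained vehicle B. At chr1:164508227-164508963 vehicle libraries had 221 to 499 CPM (median 358) and corticosterone libraries 483 to 844 CPM (median 694), a log2 fold change of 0.90 (SE 0.231, edgeR adjusted p = 0.0422). The call at the chromosome 6 region was kept without untrained vehicle B or C, untrained corticosterone C, or trained vehicle A or B, and lost without any of the other 11 libraries. The call at the chromosome 1 region was kept without untrained vehicle B or D, untrained corticosterone C, trained vehicle B or trained corticosterone C, and lost without any of the other 11.

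The single member called lower, chr10:36884312-36884683, was weak. Vehicle libraries had 115 to 218 CPM (median 151) and corticosterone libraries 51.4 to 108 CPM (median 93.1), and the groups did not overlap. The log2 fold change was -0.86 (SE 0.217, edgeR adjusted p = 0.0358), and the call was lost without any of 12 of the 16 libraries (adjusted p up to 0.125). Its pCREB partner, called in 13 libraries, had 25.7 to 77.7 CPM.

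How many members were called depended on single libraries, and the count rose most without untrained vehicle B. Without untrained vehicle B, the shallowest, edgeR called 31 members higher and 23 lower, all 5 of those called with every library among them, while 6.13% of all tested regions were called higher and 0.473% lower. Without all 3 libraries with few calls, 13 members were called higher and 12 lower, 4 of the 5 among them, beside 3.61% and 0.252% of all regions. In the fits that left out any 1 of the other 15 libraries, 1 to 10 members were called, and in 10 of these fits the count was weaker than with all libraries. Shares over all regions are not given for these fits. Untrained vehicle B had the highest vehicle signal of all at some members with a low ratio of pCREB to GR: 997 CPM at chr3:150581563-150581906, where the other vehicle libraries had 172 to 676, and 1092 CPM at chr6:11963483-11963936, where they had 294 to 808.

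A small set of members with high GR relative to pCREB differed from the rest in the GR contrast. The limit of -2.5 used here was chosen after the values were seen, and the ratio contains the GR level itself, so no test is given. Below it lay 48 members, all tested, with a median log2 fold change after corticosterone of 0.48, and 43 of them had an estimate above 0. The other 1832 members tested had a median of -0.2, with 341 above 0. When the ratio was formed from vehicle GR libraries alone, 34 members fell below the limit, with a median of 0.38 and 28 above 0. Among the 48 were 3 of the 4 members called higher, and without untrained vehicle B 18 of the 31 were, while none of the 23 called lower was. With the ratio from vehicle GR libraries alone, only 1 of the 4 members called higher lay below the limit and 3 lay at or above it. These 48 members had a median GR level of 902 CPM per kb, a pCREB level of 111 CPM per kb, a width of 382 bp and 9.5 pCREB calls, where the others had 333, 123, 470 bp and 13. In 10 classes of members ordered by the ratio, the medians of the other 9 lay between -0.24 and -0.17, and the lowest class of 189 members had 0.18. With GR level from vehicle libraries alone the lowest class had -0.14, the next -0.34 and the highest -0.04. Vehicle GR level enters both that ratio and the fold change, so these medians cannot show how far the difference follows the ratio.

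The comparison of trained with untrained rats within corticosterone asks whether training changed GR binding under the hormone. Its libraries did not enter the count of vehicle calls, but calls in them helped to list regions. Neither edgeR nor DESeq2 called any of the 1880 members or of all 4968 regions (0.0% of regions in each direction). On simulated counts the edgeR test recovered only 18 of 100 regions changed 2-fold, and 91 of 100 changed 4-fold. At an unadjusted p under 0.05 edgeR counted 63 members (3.35%), and 184 of all regions (3.7%). Of the 1513 members listed through a vehicle condition 1509 were tested, none was called, and 46 had an unadjusted p under 0.05. The median log2 fold change over members was -0.01, with 80% of them between -0.40 and 0.37, and the median SE of a member was 0.313.

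The 3 members with the smallest p did not pass the test. At chr1:36361139-36361388 untrained corticosterone pools A to D had 42.8, 93.7, 69.7 and 29.1 GR CPM and trained corticosterone pools 166, 153, 149 and 130 CPM (log2 difference 1.37, SE 0.332, edgeR adjusted p = 0.777). At chr10:75291146-75291478 the untrained pools had 25.7, 41.7, 34.8 and 36.4 CPM and the trained pools 49.9, 99.5, 99.5 and 92.2 CPM (1.30, SE 0.376, edgeR adjusted p = 0.966). In the other direction, chr6:9482406-9482708, one of the pCREB-rich members, had 180, 219, 192 and 218 CPM in untrained and 141, 92.8, 78.2 and 97.6 CPM in trained pools (-0.99, SE 0.318, edgeR adjusted p = 0.966). The trained and untrained pools did not overlap at these 3 regions, which were picked for their p; the same held for 3.74% of all regions tested and for 68 members (3.62%).

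The pCREB signal at the members was tested for corticosterone over all 14553 pCREB regions that passed the filter, 1882 of which overlapped a member. No region was called by edgeR or DESeq2 (0.0%). At an unadjusted p under 0.05 edgeR counted 66 regions at members (3.51%), 56 of them with an estimate above 0, and 709 regions in all (4.87%). The median log2 fold change was 0.06 at members and 0.06 at partners of the other shared regions, against -0.003 over all pCREB regions. Scaled by total count these medians were 0.14 at members and 0.08 over all regions, and leaving out 1 library moved the members' median between 0.03 and 0.09. The smallest p at a member belonged to chr11:73487781-73488123, with 18.3 to 40.3 pCREB CPM in vehicle (median 25.8) and 27.5 to 55.8 CPM in corticosterone libraries (median 45.9), a log2 difference of 0.69 (SE 0.208, edgeR adjusted p = 0.84). The next were chr6:9599297-9599905 (0.58) and chr3:94144610-94145304 (0.59), both also with an edgeR adjusted p of 0.84. At all 3 the groups overlapped.

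The effect of training on pCREB, averaged over both treatments, asks whether phosphorylated CREB at these regions differed after learning. The edgeR test called no region (0.0%), with 37 member partners (1.97%) and 417 of all regions (2.87%) at an unadjusted p under 0.05. DESeq2 called 2 regions higher in trained rats, 0.0137% of all tested, and both overlapped members on chromosome 7. At chr7:144015523-144017621 untrained libraries had 63.6 to 384 pCREB CPM (median 173) and trained libraries 233 to 9097 CPM (median 408), a log2 difference of 3.02 (SE 0.592, edgeR adjusted p = 0.848). Most of the trained signal came from 3 of the 8 libraries: trained vehicle B with 9097, trained vehicle D with 4265 and trained corticosterone A with 1332 CPM, while the other 5 had 233 to 418. At chr7:144038490-144040019 the same 3 libraries had 3237, 1476 and 383 CPM and the log2 difference was 2.87 (SE 0.647, edgeR adjusted p = 1.0). Without trained vehicle A, one of the low trained libraries, edgeR called 3 members (adjusted p = 0.000489 and 0.0011 at these regions). The share of all pCREB regions called in that fit is not given here, so the count cannot be set against other regions. Without trained vehicle B and D the log2 differences were 1.29 and 1.13 and none was called.

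Those chromosome 7 regions belonged to a small set that varied between pools more than any other members. A limit on the coefficient of variation of 0.8, chosen after the values were seen, was passed by 7 members in GR and by the same 7 in pCREB, where the median member had 0.314 in GR and 0.248 in pCREB. They were chr7:144015886-144017606, chr7:144038895-144039988, chr7:144040559-144041164, chr1:265469322-265469937, chr1:178907666-178908136, chr16:58844772-58845085 and chr18:37041424-37041732. At the first, GR signal was 48007 CPM in untrained vehicle D, 47926 in untrained corticosterone B, 49232 in trained vehicle D and 31893 in trained corticosterone B. In the other 12 libraries it was 488 to 15033 CPM. High libraries were thus found in all 4 conditions, and the pCREB signal was high in trained vehicle D alone of these 4 pools, while trained vehicle B had 1574 GR and 9097 pCREB CPM.

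At chr1:178907666-178908136 both antibodies divided the pools in the same way. GR signal was 1648 to 2033 CPM in 8 pools, untrained vehicle B and D, untrained corticosterone C, trained vehicle B and D and trained corticosterone A, C and D, and 60.0 to 375 CPM in the other 8. The pCREB signal was 469 to 776 CPM in the same 8 pools and 49.6 to 111 CPM in the others. Neither range was bridged by any library, and every condition had pools on both sides. The chromosome 16 and 18 members resembled each other: GR signal was 1280 to 2019 and 1101 to 1567 CPM in untrained vehicle B and D and trained vehicle B and D, and at most 909 and 696 CPM in the other 12 libraries. Their pCREB signal was highest in trained corticosterone A, at 1356 and 1364 CPM, with 372 and 336 CPM next in trained vehicle B.

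**Figure D5:**
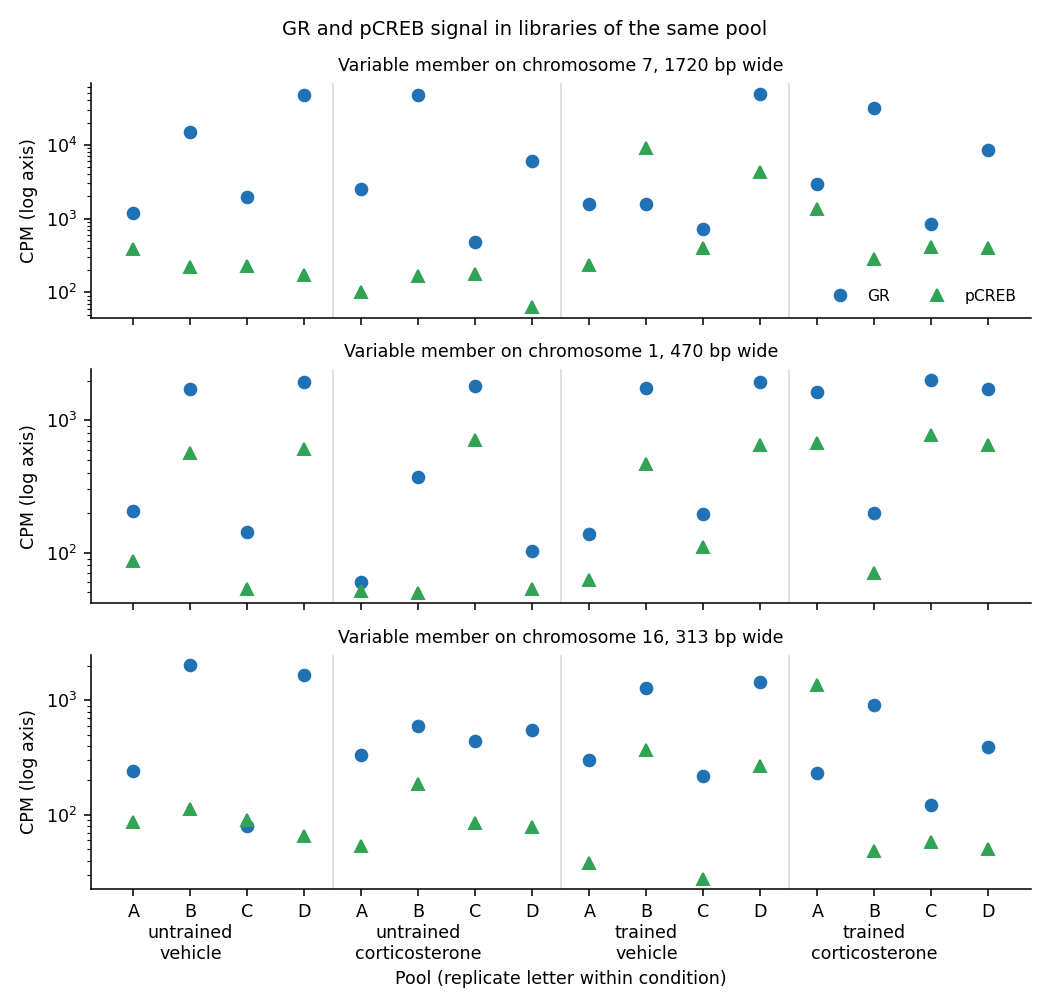
GR (circles) and pCREB (triangles) signal in CPM, on a log axis, in the 16 pools at 3 of the 7 most variable members, on chromosomes 7, 1 and 16. At the chromosome 1 member both antibodies are high in the same 8 pools (GR 1648 to 2033, pCREB 469 to 776 CPM), whereas at the chromosome 7 member the pools with the highest GR signal, up to 49232 CPM, are mostly not those with the highest pCREB signal, up to 9097 CPM.

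Over the members as a set, a pool's deviation in GR was only loosely tied to its deviation in pCREB. For each pool, its GR and pCREB deviations from their condition means were correlated over the 1878 members tested in both antibodies, the 7 included. The correlation ranged from -0.0368 to 0.394 over the 16 pools, with a median of 0.11, and was above 0 in 14. Between different pools of a condition the median of 48 such correlations was -0.0395. Deviations are taken from the condition's own mean, which pulls correlations between its pools below 0, so that value is no independent baseline. These correlations describe libraries with 6 to 29 GR reads at the median member.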

How the data were processed

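Per the submitters' processing notes, BWA 0.7.10, MACS2 2.1.1.20160309, bedtools 2.26.0, HTSeq 0.6.1-1 and the build rn6 were used; for their roles and settings, the sources used here say nothing. The authors deposited 1 table of GR and pCREB regions with raw read counts for 16 libraries per antibody, and the calls were read from the peak names it lists. Coordinates are those of that table. The 4 inputs were not analysed here, and no gene or sequence was paired with the regions, since the annotation at hand is of another build.

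Each antibody's counts entered edgeR 4.0.16 (R 4.3.3; robust quasi-likelihood test, TMM scaling, filterByExpr by condition, 1 model of 4 conditions, Benjamini-Hochberg over all regions tested); the 3 mitochondrial GR regions stayed in the fit and out of the read shares. CPM uses the TMM-scaled library size. The test was run on simulated counts with 100 regions changed 2-fold and 100 changed 4-fold. For GR it recovered 57 and 98 of them for corticosterone, and 18 and 91 for training within corticosterone. For pCREB it recovered 78 and 100 for corticosterone, and 72 and 100 for training. DESeq2 1.42.0, other scalings and filters, a replicate block and left-out libraries were alternatives. No 2 replicates agreed within sampling noise; replicates are pools of rats, and p-values measure the spread between these pools. The labels name no molecular identifiers for the deposited counts.

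A region is in the deposited table only with calls in 3 or more libraries of a condition. The members and all lists were chosen with earlier results of these data known. Named regions were the 10 strongest members with 8 vehicle calls, members past a test with an above-median level and no overlap between groups (or the 3 with the smallest p), the 5 highest and 5 lowest in pCREB over GR, and 3 regions on each side of the 4-call limit nearest their class's median. The 5 members called for corticosterone, the 7 most variable members the ratio limit of -2.5 and the restrictions to members listed through a vehicle condition, to 6 vehicle libraries, to libraries other than pCREB trained vehicle B and D and to members other than the 4 most variable were chosen after the values were seen.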

Additional observations from a re-analysis of the deposited data

Results flagged for a closer look

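Among 116 groups of 4 libraries at the named regions, 12 had 1 library far from the other 3 (a gap beyond Dixon's critical value); chance gives about 1 in 20. That rate does not apply to the 7 members chosen for varying most between libraries, which held 7 of the 12 in 28 groups; the other 88 groups held 5. In untrained corticosterone, replicate B had 47926 GR CPM at chr7:144015886-144017606 (others 488 to 6107), 16673 at chr7:144038895-144039988 (139 to 1941) and 9071 at chr7:144040559-144041164 (105 to 1069). In trained vehicle, replicate D had 49232 (712 to 1574), 16955 (221 to 483) and 9153 (294 to 583) at the same regions, and 6941 at chr1:265469322-265469937 (123 to 409).

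Replicate B of untrained vehicle had 2280 GR CPM at chr10:78149453-78149778 (others 1813 to 1865). Replicate C of untrained corticosterone had 1350 at chr20:40884475-40884850 (1091 to 1105), and replicate B had 83.3 at chr6:9599337-9599904 (171 to 174). Replicate C of trained corticosterone had 5631 at chr20:40913368-40913963 (4589 to 4710). Replicate A of trained corticosterone had 49.9 at chr10:75291146-75291478 (92.2 to 99.5).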

How the results depend on the processing

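Of the tests, the count of members called for corticosterone in GR moved most: 5 with all libraries, 8 with DESeq2, 25 without the 3 libraries with few calls, and 1 to 54 when 1 library was left out. With a replicate block it was 10, but the letters do not pair the pools: same-letter libraries of different conditions had deviations correlated at -0.202 to 0.487 in GR (11 of 24 above 0.1) and -0.337 to 0.508 in pCREB (13 of 24), and 5 and 8 of 16 libraries correlated best with their own letter. The cause of these moves was not tested. Shares of all regions are not given for the block fit, or for fits without 1 library other than GR untrained vehicle B. The counts in those fits cannot be set against other regions. The members' median log2 fold change stayed between -0.20 and -0.12 in 25 alternatives. No member was called for GR training within corticosterone in 26 alternatives, or for pCREB and corticosterone in 24, the block included. For pCREB and training the count was 0, with 2 by DESeq2 and 0 to 3 when 1 library was left out. Requiring 5 vehicle calls left 1029 members. The corticosterone share of 45.4% became 39.5% with mitochondrial reads in the total. No result changed sign with a call. The planned gene-start and motif windows were not run. Depth limits single regions: the median member had 6 to 29 GR reads.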

Other observations

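A few stretches held several members. On chromosome 1, 5 members lay between 55733693 and 55750938, with a highest GR level of 2151 CPM per kb, and 2 more between 55702590 and 55706822 (2506). On chromosome 9, 3 members lay between 12180700 and 12183970 (793) and 2 between 12227227 and 12236824 (1223). Groups of 3 with high levels were also found on chromosome 13 from 33503925 to 33508697 (2207) and on chromosome 12 from 3351333 to 3357482 (2060).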
